A study of Homo sapiens with 13 samples.

Results

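Slowly doubling lines of acute lymphoblastic leukemia (ALL) were set against fast doubling ones over all genes of the array. The groups follow the doubling times that the study measured by counting viable cells daily. The 6 slow lines double in 1.4 days or more, and the 7 fast lines in under 1.2 days, so that together they are the 13 lines of the series. The slow lines were REH, RS4,11, Nalm16 and Nalm30 of B-cell precursor ALL (BCP-ALL) and ALL-SIL and HPB-ALL of T-cell ALL (T-ALL). The fast lines were 697 and Nalm6 of BCP-ALL and CCRF-CEM, Jurkat, Molt4, P12-ICHIKAWA and TALL-1 of T-ALL. BCP-ALL thus made up 4 of the 6 slow lines and 2 of the 7 fast lines, and lineage was a covariate in every comparison unless stated. All are established human leukemia lines, kept untreated in RPMI-1640 medium with fetal bovine serum and each measured on 1 array. Every p-value therefore measures the spread between lines, and a line stands for itself more than for a disease subtype. The sample labels name the line and the lineage but not the doubling time.

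The doubling time of a culture depends on how long its cells take to divide, how many of them divide and how many die. Entry into S phase is set by D-type cyclins and CDK4 or CDK6, which phosphorylate RB1 and free the E2F factors with their partner TFDP1, and is slowed by CDK inhibitors. MYC drives the making of ribosomes, nucleotides and amino acids that a dividing cell needs. The BCL2 family sets how readily lymphoid cells die, and cytokine signals through JAK and STAT proteins induce both BCL2 and the kinase PIM1.

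The values were log2 of the array signal plus 16, so that 4 is the lowest possible value, and values within 1 unit of it are called near the floor. Array medians were 5.05 in Nalm16, 5.09 in Nalm30 and 5.15 in ALL-SIL, all slow lines, and between 5.20 and 5.37 in the other 10 lines. P12-ICHIKAWA and TALL-1 had nearly the same profile (Pearson's r = 0.993 across probe sets), and Nalm16 and Nalm30 were the next closest pair (r = 0.959), so the lines are not equally independent. Lineage markers fitted the labels. Of 9 measured B-cell precursor markers, 8 to 9 were above 6 in each slow BCP-ALL line and 9 in each fast one, and of 14 T-cell precursor markers, 11 to 14 were above 6 in every T-ALL line of either group. Both slow T-ALL lines express a TLX homeobox oncogene, TLX1 at 9.22 in ALL-SIL and TLX3 at 10.25 in HPB-ALL, whereas neither gene exceeded 4.90 in a fast line. Within T-ALL, slow doubling and TLX expression cannot be told apart.

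Of 12560 genes tested, 3 differed between slow and fast lines at an adjusted p under 0.05, or 0.0239% of the genes. The RNA-binding protein ZC3H12D and the microtubule-binding CLIP2 rose in slow lines (0.0159% of the genes), and the PHD finger protein PHF21B fell (0.00796%). At an unadjusted p under 0.05 there were 940 genes (7.48%), of which 440 (3.5%) were higher and 500 (3.98%) lower in slow lines. With arrays centred on their medians this split was 597 higher and 382 lower. The median difference of all genes was -0.04 as deposited and 0.04 after centring. The count of 3 depended on single lines, with 1 gene left without ALL-SIL, 2 without HPB-ALL or Molt4, 5 without RS4,11, 8 without REH and 12 without CCRF-CEM. Of the 3 genes, 1 still passed without ALL-SIL or HPB-ALL and 2 without 697, Nalm6 or Molt4. With P12-ICHIKAWA and TALL-1 averaged, or Nalm16 and Nalm30, the same 3 genes passed.

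ZC3H12D belongs to a family of CCCH zinc finger proteins that degrade messenger RNAs of activated lymphocytes. Its lowest, median and highest values were 5.77, 8.41 and 8.75 in slow lines, against 4.03, 4.18 and 6.80 in fast lines. All 4 slow BCP-ALL lines lay at 8.23 or above and the fast ones, 697 and Nalm6, at 5.61 and 6.80. In T-ALL, HPB-ALL had 7.09 and ALL-SIL 5.77, and all 5 fast lines lay near the floor. The groups overlapped through ALL-SIL and Nalm6 but not within a lineage. The log2 difference was 2.33 ± 0.25 (SE; adjusted p = 0.00773 by limma), and a two-sided exact permutation test within lineages gave p = 0.00317, the smallest its 315 assignments allow. The exact test used the values by which the gene was picked and was not adjusted for all genes tested, so it adds no separate support.

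CLIP2, which links membranes to the growing ends of microtubules, had the same order. It ran from 6.20 through a median of 7.69 to 8.28 in slow lines, against 4.0, 4.21 and 6.80 in fast lines. The 5 fast T-ALL lines were near the floor, whereas ALL-SIL had 6.20 and HPB-ALL 6.48. Slow BCP-ALL lines, from 7.44 to 8.28, lay above 697 at 6.80 and Nalm6 at 6.59. CLIP2 differed by 1.72 ± 0.21 (SE; adjusted p = 0.0147).

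PHF21B, a paralog of a subunit of the LSD1 histone demethylase complex, was near the floor in all 6 slow lines (4.0 to 4.18, median 4.04), against 5.44 to 6.98 in fast lines (median 5.95). The groups did not overlap. It was the 1 gene of 12560 (0.00796%) near the floor in all slow and in no fast line, and 0 genes had the opposite pattern. PHF21B differed by -1.89 ± 0.24 (SE; adjusted p = 0.0170), a size that the floor understates. A probe set of PHF21B with lower signal, at 5.37 or less in every line, differed by -0.07, so the call rests on 1 of its 2 probe sets.

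**Figure D1:**
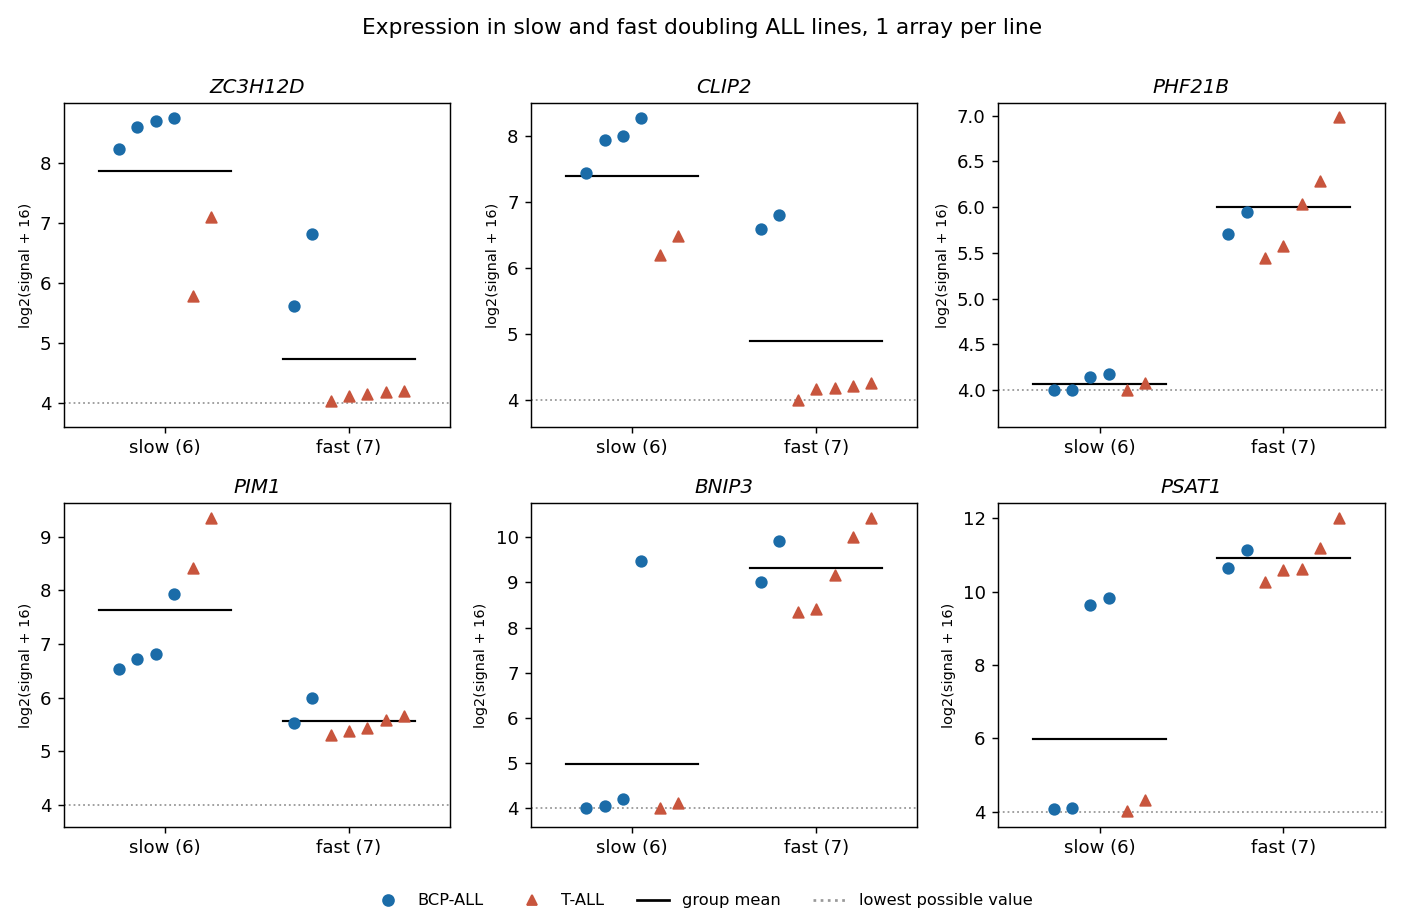
Expression of 6 genes on the log2(signal + 16) scale, with slow lines left and fast lines right in each panel, 1 point per line in order of value within a lineage, circles for BCP-ALL and triangles for T-ALL. Black lines are group means, which also reflect the different share of BCP-ALL in the groups, and the dotted line is the lowest possible value of 4. PHF21B, PIM1 and PSAT1 do not overlap between groups, and BNIP3 is near the floor in 5 of the 6 slow lines.

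Groups that did not overlap at all were rare. In 14 genes (0.111%) every slow line lay above every fast line, and in 27 (0.215%) every slow line lay below. Compared within each lineage, slow lines lay above in 71 genes (0.565%) and below in 92 (0.732%). PIM1, MRC2 and GATAD1 were among the 14, and PHF21B, VASH2, CNFN, FBXL16, GJA3, PPM1E and PSAT1 among the 27.

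The 10 genes that ranked next among those higher in slow lines did not pass the threshold. PIM1, a kinase that promotes survival and growth of lymphocytes, ran from 6.53 through a median of 7.38 to 9.36 in slow lines, against 5.31, 5.53 and 6.0 in fast lines. ALL-SIL at 9.36 and HPB-ALL at 8.41 were highest, and Nalm16 was the lowest slow line. PIM1 differed by 2.36 ± 0.40 (SE; adjusted p = 0.0733). Within T-ALL alone PIM1 passed, at 3.41 (adjusted p = 0.00325 by limma, 2 lines against 5), and within BCP-ALL it was 1.24 (adjusted p = 0.786).

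PHLPP1, a phosphatase that removes the activating phosphate of AKT, had values from 7.74 to 10.33 in slow lines (median 9.29), against 6.48 to 8.70 in fast lines (median 6.79). The 4 slow BCP-ALL lines were highest, and the groups separated within each lineage. HDAC5, a class IIa histone deacetylase, ranged from 6.99 to 8.5 in slow lines, against 4.47 to 7.20 in fast lines. Their log2 differences were 1.18 and 1.46, with adjusted p = 0.249 and 0.126. The less bright probe set of each gene differed by 0.05 and 0.03, but that of PHLPP1 lay near the floor in every line.

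FCGRT, the heavy chain of the neonatal Fc receptor, had 6.41 to 8.82 in slow lines (median 7.98), against 4.01 to 6.82 in fast lines (median 4.62). Its log2 difference was 2.95 (adjusted p = 0.126). DYNLT3, a dynein light chain, and POGLUT3, an enzyme of the endoplasmic reticulum that adds glucose to proteins, were near the floor in every fast line but CCRF-CEM. DYNLT3 had 6.25 to 8.94 in slow lines, against 8.08 in CCRF-CEM and at most 4.41 in the other 6 fast lines (log2 difference 3.15, adjusted p = 0.220). POGLUT3 likewise had 6.34 to 8.49 in slow lines, against 8.11 in CCRF-CEM and at most 4.36 in the others (log2 difference 2.92, adjusted p = 0.255). The endocytic collagen receptor MRC2 had 7.51 to 9.21 in slow lines, against 6.10 to 7.09 in fast lines, with no overlap and a log2 difference of 1.58 (adjusted p = 0.242). The others were ZSCAN9, SLC44A2 and GATAD1, with log2 differences of 1.31, 1.25 and 0.94 and adjusted p of 0.116, 0.116 and 0.248.

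Among genes lower in slow lines, several were near the floor in slow lines and well expressed in fast ones, and none but PHF21B passed. BNIP3, a mitochondrial protein that is induced by hypoxia and marks mitochondria for removal, was at 9.47 in REH and at most 4.22 in the other 5 slow lines. In fast lines it ran from 8.35 through a median of 9.17 to 10.43. REH thus lay within the fast range. Both probe sets gave this pattern, with log2 differences of -4.64 (SE 0.88, adjusted p = 0.126) and -4.44. Within T-ALL alone the difference passed, at -5.21 (adjusted p = 0.0207).

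PSAT1, the aminotransferase of the serine synthesis pathway, was near the floor in Nalm16, Nalm30, ALL-SIL and HPB-ALL, at 4.02 to 4.32. REH had 9.63 and RS4,11 had 9.84, both below the lowest of the fast lines, which ran from 10.28 through 10.65 to 12.01. PSAT1 differed by -5.42 ± 1.07 (SE; adjusted p = 0.145) over all lines and -6.77 (adjusted p = 0.00143) within T-ALL. The groups overlapped for the other enzymes of the pathway. PHGDH had 9.5 to 10.85 in slow lines, against 9.71 to 10.77 in fast lines, and PSPH had 7.67 to 8.44 in slow lines, against 7.87 to 8.90 in fast lines (log2 differences of -0.05 and -0.26, adjusted p of 0.973 and 0.764). These were chosen after their values were seen.

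NUDT11, a phosphatase of diphosphoinositol polyphosphates, was near the floor in all 6 slow lines, at 4.10 or less, and also in CCRF-CEM at 4.06. The other 6 fast lines had 7.69 to 9.08. Its log2 difference was -3.99 (adjusted p = 0.0733), and within BCP-ALL alone it passed at -4.78 (adjusted p = 0.00500). VASH2, a carboxypeptidase that removes the terminal tyrosine of tubulin, had 4.13 in HPB-ALL and 4.18 in ALL-SIL, 5.61 and 5.59 in Nalm16 and Nalm30, and 7.36 and 7.90 in RS4,11 and REH. Fast lines had 7.92 to 9.04, so no slow line reached them, with a log2 difference of -3.21 (adjusted p = 0.0611) and -2.20 by its next brightest probe set. VASH2 also passed within T-ALL (-4.16, adjusted p = 0.00181).

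The transcription factor NFIA was near the floor in all slow lines (4.0 to 4.79) and in CCRF-CEM (4.47), against 5.53 to 6.92 in the other 6 fast lines, and 4 of its 7 probe sets had log2 differences below -1.2. FBXL16, an F-box protein, had 4.02 to 5.13 in slow lines, against 5.73 to 8.56 in fast lines, with no overlap. NPL, which cleaves sialic acid, had 4.0 to 5.53 in slow lines, against 5.07 in Jurkat and 6.36 to 6.67 in the other 6 fast lines. Their log2 differences were -1.74, -2.68 and -1.80, each with adjusted p = 0.0733. The remaining genes by the naming rule were METRN, CNFN and GJA3, a secreted neurotrophic factor, a protein of the cornified envelope and a lens connexin, with log2 differences of -2.18, -1.09 and -1.84 and adjusted p of 0.0733, 0.0733 and 0.116.

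Metallothioneins, small cysteine-rich proteins that bind zinc and copper and are induced by these metals through the factor MTF1, were also named among the lower genes, as MT2A and MT1H. Their promoters and that of MT1X, from RefSeq (GRCh38.p14, chromosome 16, plus strand, 250 bases before to 50 after the start), are shown because all tested members of the family differed in the same direction with lineage as covariate. Capitals mark the core of the metal response element, searched as TGCNCNC, on either strand, and neighboring matches may overlap.
MT2A, chr16:56608334-56608633: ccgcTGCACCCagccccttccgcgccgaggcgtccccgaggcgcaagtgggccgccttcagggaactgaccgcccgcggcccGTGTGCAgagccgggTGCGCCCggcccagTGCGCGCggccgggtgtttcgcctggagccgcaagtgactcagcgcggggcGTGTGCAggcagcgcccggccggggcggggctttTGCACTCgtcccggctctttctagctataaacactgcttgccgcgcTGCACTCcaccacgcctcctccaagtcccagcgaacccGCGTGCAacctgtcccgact
MT1H, chr16:56669564-56669863: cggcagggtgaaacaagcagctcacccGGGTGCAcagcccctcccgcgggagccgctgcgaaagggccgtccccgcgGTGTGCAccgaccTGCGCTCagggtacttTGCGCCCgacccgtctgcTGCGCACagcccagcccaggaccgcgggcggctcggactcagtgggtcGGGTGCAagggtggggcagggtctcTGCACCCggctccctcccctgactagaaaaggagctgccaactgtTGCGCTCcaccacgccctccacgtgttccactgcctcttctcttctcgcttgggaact
MT1X, chr16:56682220-56682519: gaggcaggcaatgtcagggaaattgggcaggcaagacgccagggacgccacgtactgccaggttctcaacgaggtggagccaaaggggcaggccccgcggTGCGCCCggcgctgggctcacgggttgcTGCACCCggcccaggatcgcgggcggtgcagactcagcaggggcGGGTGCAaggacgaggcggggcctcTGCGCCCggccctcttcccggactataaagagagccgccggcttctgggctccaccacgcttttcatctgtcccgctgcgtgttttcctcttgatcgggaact
The core occurred 8 times in MT2A, 8 times in MT1H and 4 times in MT1X. Of 35116 promoters of the same length, 55.9% held at least 1 core, 2.94% at least 4 and 0.0712% at least 8.

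MT2A had 9.93 to 11.31 in slow BCP-ALL lines, against 11.48 in 697 and 12.60 in Nalm6, and 8.40 and 8.85 in the slow T-ALL lines, against 9.77 to 10.53 in the fast ones. Groups overlapped across lineages and were separate within each. The log2 difference was -1.48 ± 0.27 (SE; adjusted p = 0.115). MT1H had 8.24 to 9.98 in slow BCP-ALL lines, against 10.26 and 11.50 in fast ones, and 6.33 and 6.76 in slow T-ALL lines, against 7.69 to 9.04 in fast ones, with a log2 difference of -1.75 (adjusted p = 0.126). The whole family was taken as a list after these values were seen. Of 10 measured members 9 were tested, all 9 were lower in slow lines with lineage as covariate, and 7 had an unadjusted p under 0.05, against 3.98% of all genes. The median log2 difference was -1.48, from -1.75 (MT1H) to -0.13 (MT3), and 0 of 9 passed after adjustment. Without the lineage covariate the median was -0.59. Within BCP-ALL 8 members were lower and 1 higher, and within T-ALL all 9 were lower. MT1F was the most uneven member, with 6.94 in REH and 12.67 in Nalm30 as the lowest and highest slow BCP-ALL lines, against 11.49 and 10.03 in the fast ones. The MT1 and MT2A probe sets used are of the type that can bind near-identical family members, so the members' values are not independent and may not belong to 1 gene each. For MT1G, a second probe set, at 4.89 or less in every line, had a log2 difference of 0.02, against -1.57 by the one used. The second probe sets of MT1E, MT1F and MT1X had -0.65, -1.48 and -1.70.

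**Figure D2:**
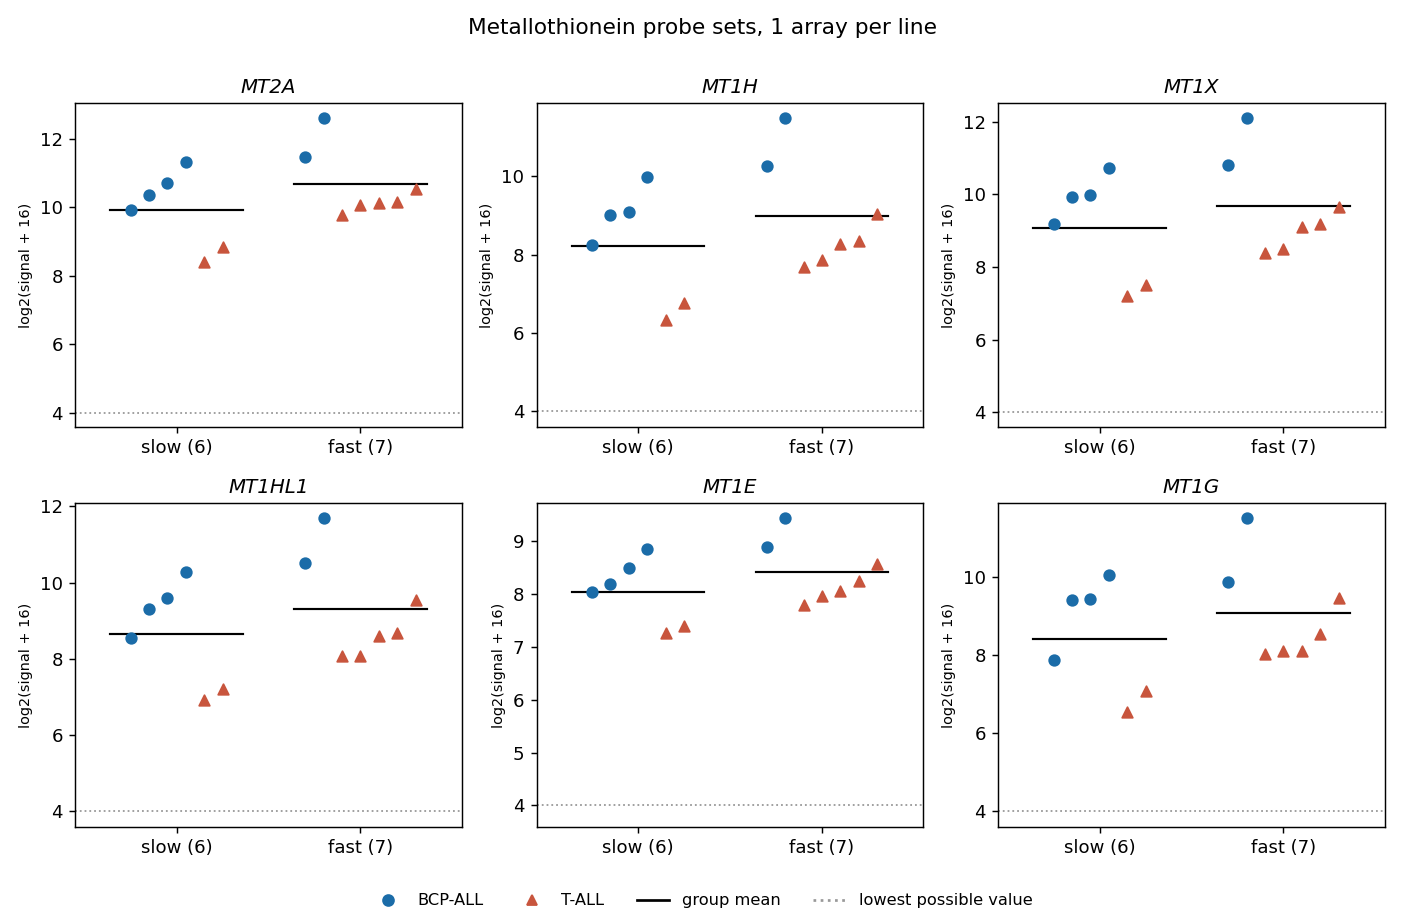
Expression of 6 metallothionein genes on the log2(signal + 16) scale, with slow lines left and fast lines right, 1 point per line, circles for BCP-ALL and triangles for T-ALL. Within each lineage the slow lines lie below the fast lines for MT2A, MT1H, MT1X, MT1HL1 and MT1E, and group means (black lines) differ less because slow lines hold more BCP-ALL, where levels are higher.

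None of the 27 tested genes of G1/S control, 51 of DNA replication or 60 of mitosis and the spindle passed after adjustment, and at an unadjusted p under 0.05 there were 1 higher and 2 lower, 0 and 1, and 0 and 1, near or below the background of 3.5% higher and 3.98% lower. Their median log2 differences were -0.04, -0.10 and -0.23. Without Nalm16 and Nalm30 that of the mitosis list was -0.04. Its mean level was 7.77 in Nalm16 and 8.45 in Nalm30, against 8.81 to 9.41 in the other slow lines and 8.98 to 9.43 in fast lines, and Nalm16 and Nalm30 also had the lowest array medians. With arrays centred on their medians the 3 lists had medians of 0.04, -0.02 and -0.15.

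RB1, the gatekeeper of S phase, had 4.10 in ALL-SIL and 7.99 to 10.42 in the other slow lines, against 10.04 to 10.75 in fast lines. Its log2 difference was -2.28 (adjusted p = 0.617), and -0.33 by its less bright probe set. Without ALL-SIL it was -0.80. TFDP1 was at the floor of 4.0 in Nalm16, Nalm30 and HPB-ALL and at 9.74 to 11.20 in ALL-SIL, REH and RS4,11, against 9.26 to 10.83 in fast lines (log2 difference -3.13, adjusted p = 0.639, and -1.87 without HPB-ALL). All 3 of its probe sets had log2 differences below -2.1. Slow lines were therefore split for TFDP1, and it did not separate the groups. CCND3, the D-type cyclin of lymphocytes, had a log2 difference of 0.50 (adjusted p = 0.639). MKI67, a marker of cycling cells chosen after its values were seen, averaged 8.53 in slow lines and 8.71 in fast lines and had a log2 difference of 0.01 ± 0.37 (SE).

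Of 24 tested CDK inhibitors and other antiproliferative genes, 16 had positive and 8 negative differences, where all genes had 5682 and 6878. Their median was 0.27, where that of all genes was -0.04. At an unadjusted p under 0.05 there were 2 higher and 1 lower, against 3.5% higher and 3.98% lower of all genes. Within BCP-ALL 10 were higher and 14 lower, with a median of -0.05, and within T-ALL 17 and 7, with a median of 0.30. All genes had 6238 higher and 6322 lower within BCP-ALL, and 5606 and 6954 within T-ALL. BTG1, which recruits mRNA deadenylases and restrains lymphocyte growth, had 8.61 to 11.61 in slow lines (median 10.29), against 8.28 to 10.04 in fast lines (median 9.09). REH was the lowest of the slow lines and Nalm16 the highest. KLF6 had a log2 difference of 1.38 over all lines, 2.76 within T-ALL, -0.10 within BCP-ALL and 0.68 without ALL-SIL. CDKN1C, which encodes p57, ran the other way, near the floor in every slow line but REH (log2 difference -1.01). None passed (adjusted p of 0.659, 0.659 and 0.626).

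No growth gene passed after adjustment. Of 57 ribosome biogenesis genes, 47 had negative and 10 positive differences, with a median of -0.27 and 5 lower at an unadjusted p under 0.05, against 3.98% of all genes. Without Nalm16 and Nalm30 the median was -0.17, with 1 lower. The mean level of the list was 8.03 in Nalm16 and 8.36 in Nalm30, against 8.64 to 8.90 in the other slow lines and 8.67 to 9.34 in fast lines. RRP12, a factor of ribosome export, had 6.37 in Nalm16 and 7.91 to 8.53 in the other slow lines, against 8.44 to 9.39 in fast lines (log2 difference -0.85, adjusted p = 0.632). The 42 cytosolic ribosomal protein genes had a median of 0.01, with 0 at an unadjusted p under 0.05, and all their differences were within 0.2 of 0.

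MYC-regulated growth genes had a median of -0.30 over 27 genes, the MYC and MAX network -0.16 over 12, translation factors -0.11 over 33 and mitochondrial ribosomal proteins -0.11 over 51, and 0 of these genes passed. Without Nalm16 and Nalm30 these medians were -0.15, -0.07, -0.04 and -0.12, and with arrays centred on their medians -0.22, -0.08, -0.03 and -0.03. EIF5A, a translation factor that needs the modified amino acid hypusine, had 6.63, 6.66 and 7.27 in Nalm16, Nalm30 and ALL-SIL and 9.29 to 11.65 in the other slow lines, against 9.29 to 12.55 in fast lines (log2 difference -2.43, adjusted p = 0.639). MYC itself, chosen after its values were seen, averaged 11.27 in slow lines and 10.84 in fast lines and had a log2 difference of 0.22 ± 0.26 (SE). MYCL, a MYC relative, was near the floor in ALL-SIL, HPB-ALL and RS4,11 and reached 5.01 in REH, against 5.73 to 6.57 in fast lines, while Nalm16 and Nalm30 had 5.93 and 6.71. Its log2 difference was -1.20 (adjusted p = 0.549), and -2.04 within T-ALL, where it passed (adjusted p = 0.0209).

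**Figure D3:**
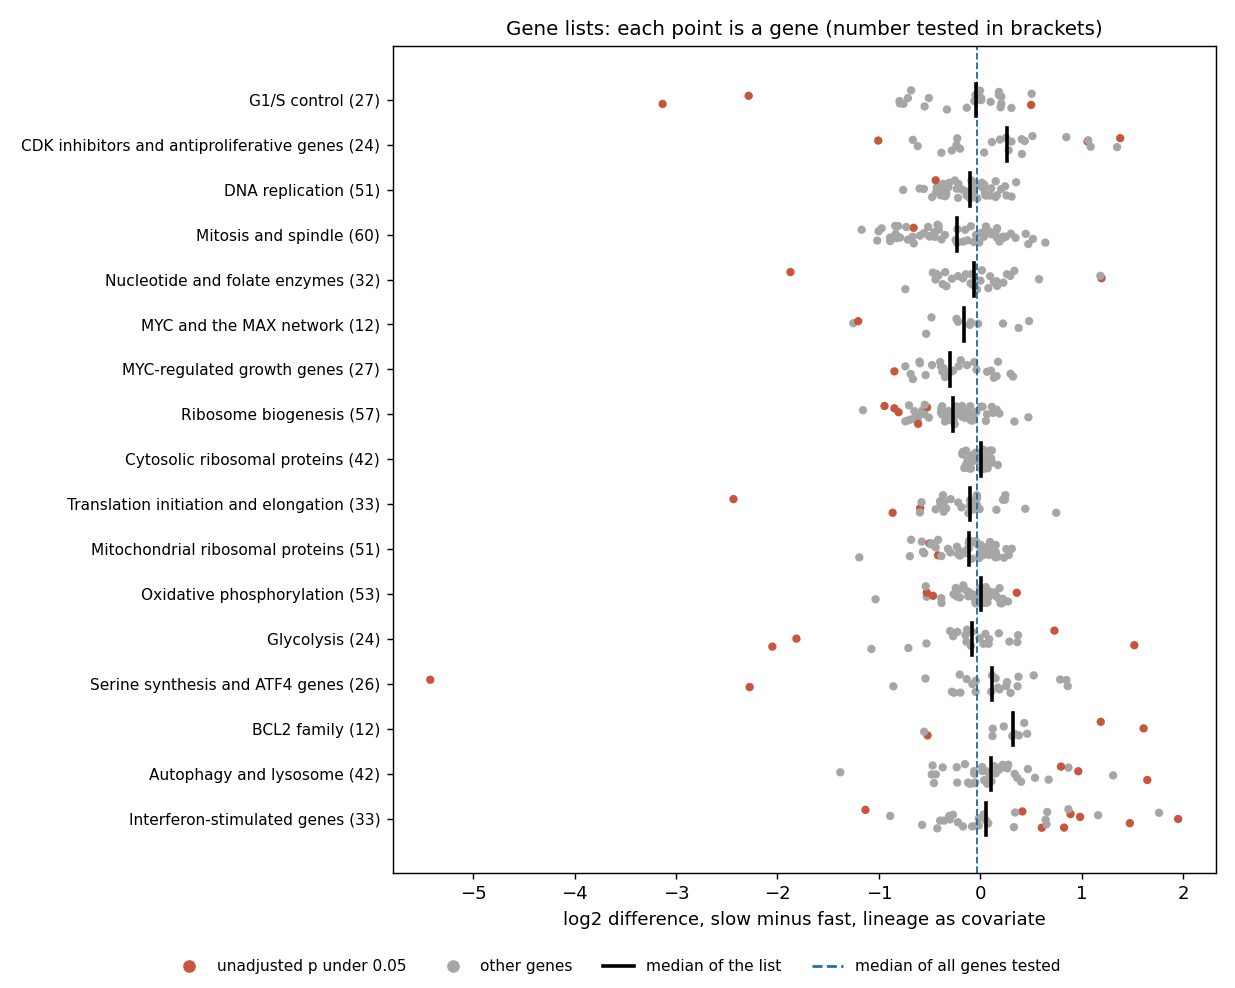
Log2 difference of each tested gene, slow minus fast lines with lineage as covariate, in 17 gene lists (rows), with the number of genes in brackets. Black bars are list medians, the dashed line is the median of all genes (-0.04) and red points have an unadjusted p under 0.05; no gene of these lists passed after adjustment. The medians run from -0.30 (MYC-regulated growth genes) to 0.33 (BCL2 family), and PSAT1 is the point at -5.42.

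In nucleotide and folate metabolism, 32 genes had a median of -0.06 and 0 passed. TK1, which salvages thymidine and is usually highest in S phase, had 8.85 to 10.45 in slow lines (median 10.00), against 7.03 to 9.62 in fast lines (median 8.0), a log2 difference of 1.19 (adjusted p = 0.549). P12-ICHIKAWA and TALL-1 were lowest. GGH, which removes glutamates from folates and from methotrexate, had 4.24 in ALL-SIL and 6.42 and 6.89 in Nalm16 and Nalm30, and 8.24 to 10.38 in the other slow lines, against 8.42 to 10.14 in fast lines (log2 difference -1.87, adjusted p = 0.639, and -0.90 without ALL-SIL).

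Glycolysis genes were mixed, with a median of -0.09 over 24 genes, 2 higher and 2 lower at an unadjusted p under 0.05 (against 3.5% higher and 3.98% lower of all genes) and 0 passing. HK1, the hexokinase of most lymphoid cells, had 8.48 to 10.43 in slow lines (median 9.60), against 7.09 to 9.40 in fast lines (median 8.17), and PFKL had a log2 difference of 0.73 beside 1.52 for HK1 (adjusted p of 0.563 and 0.459). PDK1, a hypoxia-induced brake on pyruvate oxidation, had 4.14 in ALL-SIL and 6.41 to 8.40 in the other slow lines, against 7.24 to 8.89 in fast lines (log2 difference -1.81, adjusted p = 0.549, and -0.97 without ALL-SIL). ALDOC had a log2 difference of -2.05 (adjusted p = 0.617) and was near the floor in P12-ICHIKAWA and TALL-1 too. The 53 oxidative phosphorylation genes had a median of 0.00, with 1 higher and 2 lower at an unadjusted p under 0.05, beside the same shares of all genes. Their median was -0.18 within T-ALL, where 41 of the 53 were lower, and 0.15 within BCP-ALL, where 37 were higher. Of all 12560 genes, 6954 were lower within T-ALL (median -0.05) and 6238 higher within BCP-ALL (median -0.004). The difference between lineages in this list was not tested.

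Of 26 serine synthesis and ATF4 genes, 14 had positive and 12 negative differences and PSAT1 and VLDLR alone had an unadjusted p under 0.05. This made 0 higher and 2 lower, against 3.5% higher and 3.98% lower of all genes. VLDLR, a lipoprotein receptor, had 4.10 in REH and 8.35 in RS4,11, the lowest and the highest of the slow lines, against 6.06 to 10.26 in fast lines (log2 difference -2.27, adjusted p = 0.532). Medians were 0.11 for this list, 0.04 for 27 genes of mTOR and amino acid sensing, -0.13 for 20 genes of creatine, inositol and one-carbon metabolism and -0.01 for 22 p53 target genes, and 0 genes of them passed.

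In the BCL2 family, 10 of 12 tested genes had positive differences, against 5682 of 12560 for all genes, with a list median of 0.33. At an unadjusted p under 0.05, 2 were higher and 1 lower, against 3.5% higher and 3.98% lower of all genes. Within T-ALL 7 of the family were higher and 5 lower (median 0.12), and within BCP-ALL 8 and 4 (median 0.68). BCL2 had 9.61 to 10.44 in slow BCP-ALL lines, 8.96 in ALL-SIL and 7.61 in HPB-ALL, against 8.93 in 697 and 7.15 to 7.84 in the other 6 fast lines. HPB-ALL alone lay within the range of fast T-ALL. The log2 difference was 1.19 ± 0.29 (SE; adjusted p = 0.380), and its 3 other probe sets, all dimmer, had 0.62, 0.33 and 0.04. BMF, a death-promoting member, had 7.61 and 7.67 in Nalm16 and Nalm30, 6.51 and 6.19 in ALL-SIL and HPB-ALL and 4.68 and 5.06 in REH and RS4,11, against 4.95 or less in all fast lines (log2 difference 1.61, adjusted p = 0.545). Within T-ALL BMF passed, at 1.81 (adjusted p = 0.0303). BCL2L11, which encodes BIM, had a log2 difference of -0.52 (adjusted p = 0.536) and was separate within each lineage, but its 7 probe sets ran from -1.20 to 0.02.

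Lysosomal and autophagy genes had a median of 0.10 over 42 genes, with 3 higher and 0 lower at an unadjusted p under 0.05, against 3.5% higher and 3.98% lower of all genes. Cathepsin S (CTSS) had 7.02 to 7.69 in slow lines, against 7.87 in Nalm6, 5.76 in 697 and 4.0 to 4.93 in fast T-ALL lines. It passed within T-ALL (2.60, adjusted p = 0.0209) but not over all lines (1.65, adjusted p = 0.400). TFE3, a factor that induces lysosomal genes, had 7.58 to 9.14 in slow lines, against 6.95 to 7.87 in fast lines (log2 difference 0.96, adjusted p = 0.497), and RS4,11 was the 1 slow line within the fast range.

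Of 33 interferon-stimulated genes, 7 were higher and 1 lower at an unadjusted p under 0.05, against 3.5% higher and 3.98% lower of all genes, and the median was 0.06. IRF1, a factor induced by interferon and JAK-STAT signals, had 8.88 to 9.68 in slow lines (median 9.32), against 7.83 to 9.05 in fast lines (median 8.21). RS4,11 and HPB-ALL overlapped with Molt4 and Jurkat. Its log2 difference was 0.98 ± 0.25 (SE; adjusted p = 0.380). OAS3 and MX2 had log2 differences of 1.47 and 1.95 and IFIT1 of -1.13, with adjusted p of 0.585, 0.590 and 0.630. Without Nalm16 and Nalm30, 24 of the 33 genes had positive differences, with a median of 0.32, where all genes had 6200 of 12560 and -0.01.

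Genes of cell identity did not pass in any list. With lineage as covariate the medians were -0.38 for 17 B-cell precursor genes, 0.14 for 18 T-cell precursor genes, 0.09 for 10 MHC class II genes, 0.02 for 13 progenitor genes, 0.17 for 9 myeloid genes, -0.20 for 5 NK-cell genes, -0.31 for 4 stromal genes and -0.04 for 3 erythroid and megakaryocytic genes. The B-cell value was -0.09 without 697. The progenitor median was -0.22 within T-ALL and 0.83 within BCP-ALL, and the myeloid one -0.03 within T-ALL and 0.73 within BCP-ALL. CD7 was highest in ALL-SIL and HPB-ALL, at 11.01 and 10.18, against 8.0 to 8.82 in fast T-ALL lines (log2 difference 1.13, adjusted p = 0.559). BCL11B, of the same list, had a log2 difference of -1.12, and within T-ALL the list had 9 genes higher and 9 lower. Of the B-cell precursor genes, 6 were higher and 11 lower over all lines. CD72 and CD22 had log2 differences of 1.70 and 0.82, and BLK and RAG1 of -1.12 and -2.65. FLT3, a cytokine receptor of progenitors, had 8.53 to 8.88 in slow BCP-ALL lines, against 7.33 in 697 and 4.16 in Nalm6, and was near the floor in all T-ALL lines (log2 difference 1.56, adjusted p = 0.609, and 0.66 without Nalm6). BAALC, a gene of immature leukemia, had 9.60, 9.30 and 9.14 in REH, RS4,11 and HPB-ALL and 4.84 or less in the other 10 lines. In all, 8 of the 13 progenitor genes had positive and 5 negative differences. LMO2, a transcriptional adaptor of blood stem cells, had 4.22 in ALL-SIL, 4.52 in HPB-ALL and 6.33 to 8.47 in slow BCP-ALL lines, against 4.18 in Jurkat and 6.55 to 8.5 in the other fast lines (log2 difference -1.50, adjusted p = 0.704). TAL1, its partner in DNA-binding complexes, had a log2 difference of -0.37 (adjusted p = 0.659) by a probe set at 5.74 or less in every line. A probe set that was less bright on average but reached 9.91 had -1.64. LMO2 and TAL1 were added once their values were known. The defining stromal genes of the markers were above 6 in 1 of 4, and the myeloid ones in 1 to 2 of 6, in every line.

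Without Nalm16 and Nalm30, 0 genes passed, with 887 (7.06%) at an unadjusted p under 0.05 by limma, 441 higher (3.51%) and 446 lower (3.55%). The smallest adjusted p was 0.0599, shared by 7 genes: ZC3H12D, CLIP2, PIM1, PHF21B, DGAT2, PPM1E and MYCL. The genes of the fit over all lines kept their size, with log2 differences of 2.26 for ZC3H12D, 1.69 for CLIP2 and -1.94 for PHF21B. PIM1 had 2.65 ± 0.38 and MYCL -1.62 ± 0.23 (SE). The fit had 4 slow lines in place of 6, and 8 genes passed when CCRF-CEM was left out as well, 3 without ALL-SIL or RS4,11, 2 without Nalm6 and 1 without REH, Jurkat or Molt4.

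DGAT2, an enzyme of triglyceride synthesis, had 4.0 in REH, 4.02 in ALL-SIL, 4.42 in HPB-ALL and 4.91 in RS4,11, against 5.43 to 6.24 in fast lines, while Nalm16 and Nalm30 had 6.04 and 6.36. The log2 difference was -1.52 without the Nalm pair and -1.12 with it (adjusted p = 0.549). PPM1E, a phosphatase of the PP2C family, had 4.0 to 4.35 in the 4 slow lines and 5.53 and 5.76 in Nalm16 and Nalm30, against 5.87 to 7.88 in fast lines, and all slow lines lay below all fast lines. STAG3, a meiotic cohesin subunit, had 10.69 and 10.57 in Nalm16 and Nalm30 and 4.48 to 5.85 in the other slow lines, against 5.65 to 7.06 in fast lines. Its log2 difference was -1.05 (adjusted p = 0.0682) without this pair and 0.40 with it. TLE4, a Groucho corepressor, had 4.01 and 4.37 in ALL-SIL and HPB-ALL, against 6.55 to 8.88 in fast T-ALL lines. IRF2 and RNF146, with log2 differences of 0.90 each (adjusted p of 0.133 and 0.134), were among the higher genes, and their differences over all lines were 0.70 and 0.73.

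The slow minus fast difference itself differed between T-ALL and BCP-ALL in 21 genes (0.167%), by limma's interaction term at an adjusted p under 0.05. With its sign, the difference was higher in T-ALL than in BCP-ALL for 5 of them (0.0398%) and lower for 16 (0.127%). Before adjustment 1019 genes (8.11%) were under 0.05. The count of 21 grew to 68 without HPB-ALL, 54 without ALL-SIL, 47 without 697, Nalm6 or REH and 43 without RS4,11. Without HPB-ALL, ALL-SIL, 697 or Nalm6, 1 of the 4 arms is a single line, which is assumed to vary like the lines of the other arms. BAIAP2, an adaptor that shapes the actin cytoskeleton, had 12.48 in ALL-SIL and 11.16 in HPB-ALL, against 5.69 or less in fast T-ALL lines and 5.49 or less in all BCP-ALL lines. CSMD1, a large transmembrane protein, had 10.55 and 12.13 in these lines and at most 5.56 elsewhere. The differences between lineages were 6.83 and 6.16 (adjusted p of 7.08e-05 and 0.00013). Both are genes expressed in the slow T-ALL lines alone, by 1 of 4 probe sets for BAIAP2 above 8 and by 2 of 5 for CSMD1.

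ALDH1A2, which makes retinoic acid, had 4.23 and 4.68 in ALL-SIL and HPB-ALL, against 9.69 to 10.57 in fast T-ALL lines, and stayed at 4.21 or less in BCP-ALL. NDN (necdin), a growth suppressor of neurons, had 4.89 and 4.86 in the slow T-ALL lines, against 10.92 to 11.91 in the fast ones. Their differences between lineages were -5.80 and -6.48 (adjusted p = 7.08e-05 each). PNMA2, BCL11A, ACAA2, ANXA5 and SCML2 were likewise near the floor in slow T-ALL lines, with means of 4.02 to 4.42, against 8.14 to 9.59 in fast T-ALL lines. FGD4, an activator of the GTPase CDC42, and SLC35A4 differed within BCP-ALL instead. FGD4 had 4.41 to 4.76 in slow BCP-ALL lines, against 9.02 and 8.07 in 697 and Nalm6, and by 1 of its 3 probe sets only, the others staying at 5.37 or less in every line. SLC35A4 had 8.53 to 9.44 in slow BCP-ALL lines, against 4.0 in both fast ones.

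**Figure D4:**
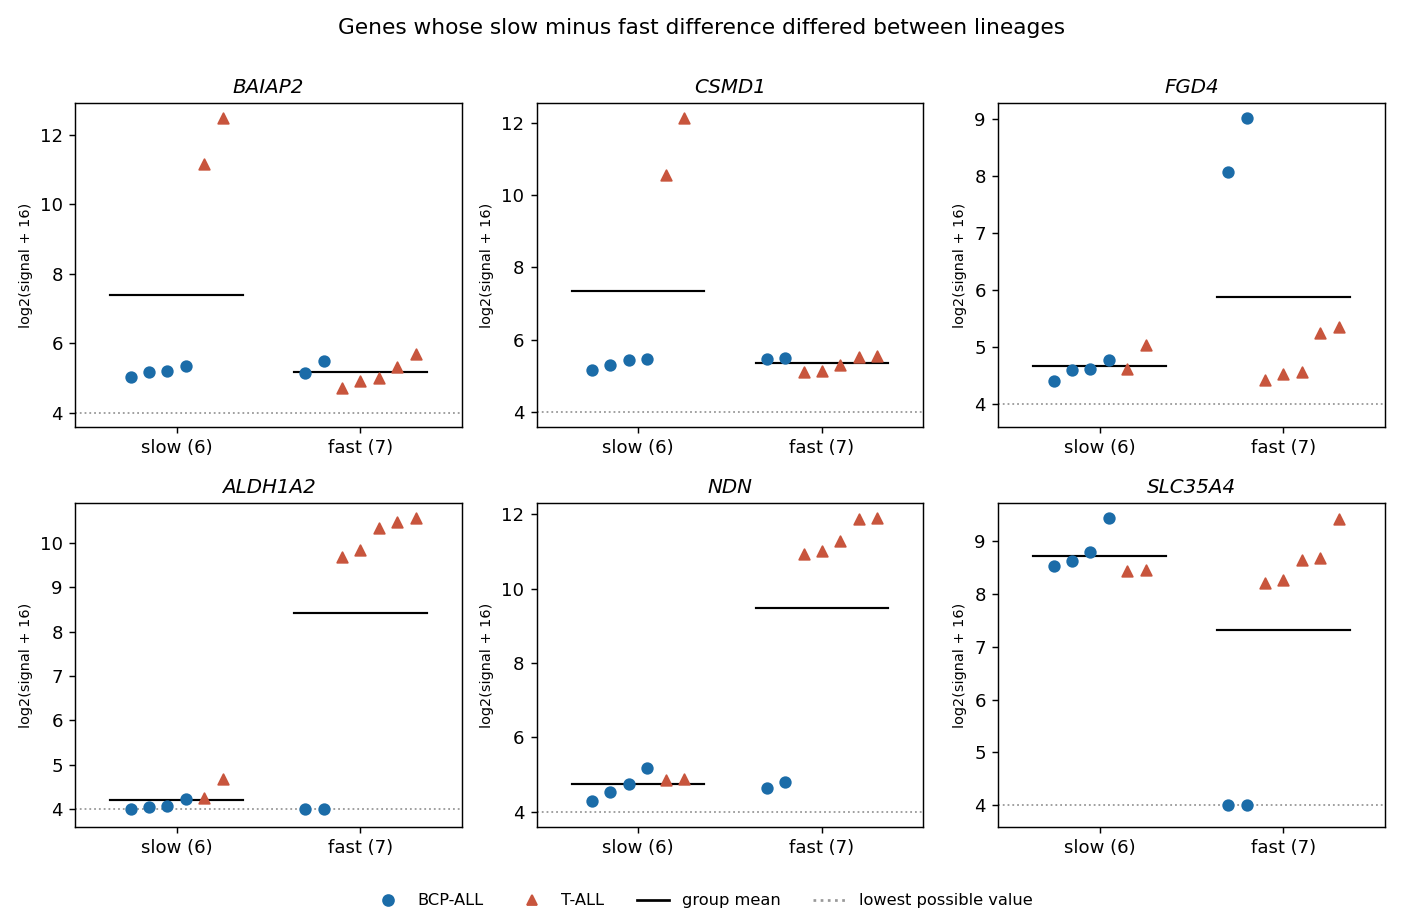
Expression of the 6 genes named for a difference between lineages, on the log2(signal + 16) scale, with slow lines left and fast lines right, 1 point per line, circles for BCP-ALL, triangles for T-ALL and black lines for group means. BAIAP2 and CSMD1 are high in the 2 slow T-ALL lines, ALDH1A2 and NDN in the 5 fast T-ALL lines, FGD4 in the 2 fast BCP-ALL lines, and SLC35A4 is at the floor in those 2.

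Within T-ALL alone, 2 slow against 5 fast lines, 54 genes (0.43%) passed, 16 higher (0.127%) and 38 lower (0.303%). They held 2 of the 3 genes of the fit over all lines, ZC3H12D and CLIP2, and 13 of the 21 genes that differed between lineages. Of the 5 fast lines, P12-ICHIKAWA and TALL-1 had nearly the same profile (Pearson's r = 0.993) but counted as separate lines and were not averaged here. The spread behind every adjusted p given within T-ALL may therefore be understated, and the other fits counted both lines too. Within BCP-ALL, 4 slow against 2 fast lines, 13 genes (0.104%) passed, 2 higher (0.0159%) and 11 lower (0.0876%), of which 6 lie on the Y chromosome and are not described. These 13 held 0 of the 3 genes of the fit over all lines. Within BCP-ALL, the doubling group and expression from the Y chromosome cannot be told apart. IRS2, an insulin receptor substrate chosen after its values were seen, passed within T-ALL with means of 8.47 in slow and 5.11 in fast T-ALL lines (adjusted p = 0.0353). Doubling time and any other property that both slow lines of T-ALL share cannot be told apart.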

How the data were processed

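The 13 ALL cell lines were profiled for gene expression with 1 HG-U133 Plus 2.0 array (Affymetrix) each. The authors deposited log2 values computed by iterPLIER+16 in Expression Console, of a version that the sources used here do not give, nor do they tell how arrays were scaled. Culture before extraction lasted 30 h per the labels, which name phenol-chloroform and a column, and overnight per the methods, which name a spin-column kit alone. Doubling groups came from the study's doubling times, not from the labels.

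Of 42450 probe sets, 39867 were in the platform annotation and 38126 were named as 1 gene; those with several genes or none were left out. Each of 18568 genes was represented by its probe set of highest mean value, and 12560 were kept that exceeded the array median in at least 3 lines. limma 3.58.1 in R 4.3.3 fitted lineage and group (slow minus fast), with and without Nalm16 and Nalm30, and the interaction of lineage and group, with Benjamini-Hochberg adjustment over all genes. Single genes also had a two-sided exact permutation test of group labels within lineages. Named were, per direction, the 12 genes with the smallest p (3 for the interaction) and up to 4 of each of 29 lists, which are described by counts and medians alone. Members, groups and lists were chosen with earlier results of these data known, and the metallothionein list was added after values were seen. Alternatives covered normalization, filter, probe set, variance model, covariate, lineage, related lines and each line left out. The fits were tested on simulated data. Other steps used Python 3.11.15 with pandas 2.3.3.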

Additional observations from a re-analysis of the deposited data

Results flagged for a closer look

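In 17 of 202 groups of lines, from 101 named genes, the highest or lowest line stood far from the others by Dixon's test. It flags about 1 group in 20 by chance where values are normally distributed, which need not hold for groups that mix lineages or lie near the floor. Among slow lines, REH stood apart with 9.47 for BNIP3, 6.56 for CDKN1C and 4.72 for CNFN. HPB-ALL did so with 6.99 for NIP7 and 4.68 for ALDH1A2, Nalm16 with 6.37 for RRP12 and Nalm30 with 9.44 for SLC35A4. The CNFN and ALDH1A2 values are themselves near the floor. Among fast lines, CCRF-CEM had 8.08 for DYNLT3, 8.11 for POGLUT3 and 4.06 for NUDT11, in each case a value like that of the slow lines. The line 697 had 9.26 for TFDP1, 8.93 for BCL2, 7.47 for PDGFRB, 7.33 for FLT3 and 6.57 for APOLD1. Jurkat had 5.07 for NPL and 5.71 for TAL1, the latter by a probe set at 5.74 or less in every line.

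The slow minus fast difference, with its sign, was higher in T-ALL than in BCP-ALL for 5 genes by the interaction term of limma. The differences between lineages were 6.83 for BAIAP2, 6.16 for CSMD1, 3.96 for FGD4, 2.74 for PLEKHA2 and 2.37 for NCR3. For 16 genes the signed difference was lower in T-ALL. These were MEST (-6.49), NDN (-6.48), ANXA5 (-5.94), ALDH1A2 (-5.80), PNMA2 (-5.49), ACAA2 (-5.35), TSPAN7 (-5.14), SLC35A4 (-5.04), BCL11A (-4.31), FSD1 (-4.19), SCML2 (-3.29), KAZALD1 (-3.21), GLB1L2 (-3.21), DTX4 (-3.17), PCYOX1L (-2.35) and PRRT3 (-1.996). MEST, KAZALD1 and DTX4 owed most of this to BCP-ALL, with differences of -0.95, 0.05 and -0.29 in T-ALL, against 5.55, 3.25 and 2.89 in BCP-ALL. So did SLC35A4 and PCYOX1L, with -0.20 and -0.75 in T-ALL, against 4.84 and 1.60 in BCP-ALL. Of the 5 genes with a higher signed difference, FGD4 and PLEKHA2 did too, with 0.0076 and 0.57 in T-ALL, against -3.95 and -2.17 in BCP-ALL.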

How the results depend on the processing

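The count of 3 genes over all lines was 13 within BCP-ALL, 54 within T-ALL, 1 without the lineage covariate and 6 after quantile normalization, and ran from 1 to 12 when each line was left out. The 3 genes also passed in each of the other alternatives to that fit (centring, filters, probe set choice, variance model, averaged related lines). Without Nalm16 and Nalm30 the count of 0 became 7 under the stricter filter, where 11303 genes were tested, and 0 to 8 with each line left out. The count of 21 between lineages became 11 under the stricter filter and 16 to 68 with each line left out. A few named genes changed sign. STAG3, 0.40 over all lines, was -0.99 within T-ALL, -0.14 with Nalm16 and Nalm30 averaged, -1.05 without them, and from -0.15 to 0.81 with each line left out. Within BCP-ALL, ZNF850 had -0.019, BAIAP2 -0.13, CSMD1 -0.14, ALDH1A2 0.078, KLF6 -0.10 and CD7 -0.019; within T-ALL, FGD4 had 0.0076 and SLC35A4 -0.20. CD7 was -0.80 without the lineage covariate. The causes were not tested. Of the other values of named genes, 3035 kept direction and side of the threshold, 126 newly passed and 16 no longer did. Of list medians, 689 stayed within the spread and 7 moved. No paired analysis was possible because slow and fast lines are different cell lines with 1 array each. Limits are 1 array per line, 2 slow T-ALL and 2 fast BCP-ALL lines, unequal lineages, an unstated scaling between arrays, and a floor of 4 that understates differences of genes that are off.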
